A study of Macaca mulatta with 25 samples.

Results

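Rhesus macaque blastocyst libraries differed widely in their levels of GDF9, WEE2 and ZP3, genes known for their transcripts in the oocyte. This comparison sets the 7 libraries with the most of these transcripts (rich) against the 7 with the least (poor), 14 of the 25 libraries in the count table. The members were chosen by the measured values of GDF9, WEE2 and ZP3: the score of a library is the mean of log2(CPM + 1) over these 3 genes, where CPM is a gene's count scaled to a fixed total per library. Only the 21 libraries in which CGA, a hormone subunit of the placenta, stayed below 20 CPM were ranked, and the 7 libraries between the classes are called the middle. The 4 libraries above that limit (C 8, C 11, C 12 and T 1) entered neither class.

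In a growing oocyte, transcripts are made and stored long before fertilisation, and the first divisions of the embryo run on this store. Over the maternal-to-embryonic transition the stored messages are broken down and the embryo's own genome takes over, and most blastocyst transcripts are new ones. GDF9 encodes a growth factor secreted by the oocyte, WEE2 a kinase that holds the oocyte in meiotic arrest, and ZP3 a protein of the egg coat. By the blastocyst stage the embryo has an outer trophectoderm, which forms the placenta, and an inner mass that sorts into epiblast and primitive endoderm.

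The mothers were females treated from about 2.5 years of age, 10 per group, for 5 to 6 years. Controls (C) had cholesterol implants and standard chow with 15% of calories from fat, the T group had testosterone implants and the same chow, the WSD group ate a Western-style diet with 36% fat, and the TWSD group had testosterone and this diet. Eggs collected after ovarian stimulation were fertilised in vitro with semen of fertile males, and embryos grew for at most 8 days before the egg coat was removed and the embryo was frozen. The labels do not tie a library to a mother, father or batch, and do not say whether a library is 1 embryo, and p-values therefore reflect only how these libraries vary, which may be technical. The rich class held T 4, T 8, T 11, WSD 1, C 1, TWSD 2 and TWSD 3, and the poor class T 5, T 6, WSD 3, WSD 6, WSD 7, WSD 8 and WSD 10.

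The classes were not balanced for treatment or depth. WSD made up 1 of 7 rich and 5 of 7 poor libraries (Fisher's exact test, two-sided, p = 0.103, adjusted over 6 checks 0.308), and both TWSD libraries were rich (Fisher's exact p = 0.462, adjusted 0.692). Total counts ran from 15005205 to 26710010 in rich and from 17844444 to 35544542 in poor libraries (exact permutation test of the means, two-sided, p = 0.0676, adjusted 0.308). Genes detected ran from 15419 to 21793 in rich and from 14247 to 21037 in poor libraries (exact permutation p = 0.312, adjusted 0.625). The part of treatment and depth in the differences below was not tested except where a fit with treatment or within the T group is given. No poor library was C or TWSD, so in a fit with treatment C 1 and both TWSD libraries add nothing to the difference. The fit within the T group set 3 rich libraries against 2 poor ones. In such bulk samples, fewer cells of a kind and less RNA per cell cannot be told apart. Across the libraries of both classes the lowest level of KRT18, a keratin of trophectoderm, was 926 CPM. That of POU5F1, a pluripotency factor, was 241. Other markers did not hold up in all libraries. C 1, the lowest for KRT18, had 9.89 CPM of KRT19, another trophectoderm keratin, and 0.225 of HAND1, a trophoblast factor. The lowest values among poor libraries were 150 CPM of KRT19 and 28.3 of HAND1.

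The values that chose the classes are given here as a description, with no test. T 11 stood far above all others with a score of 6.03, and the other rich libraries ran from 4.23 in WSD 1 to 3.11 in T 8. Poor libraries ran from 1.73 in WSD 10 to 0.11 in T 6. The scores had no gap at either limit: T 7, the highest of the middle, scored 2.88 beside 3.11 in T 8, and T 3, the lowest of the middle, scored 1.77 beside 1.73 in WSD 10.

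**Figure D1:**
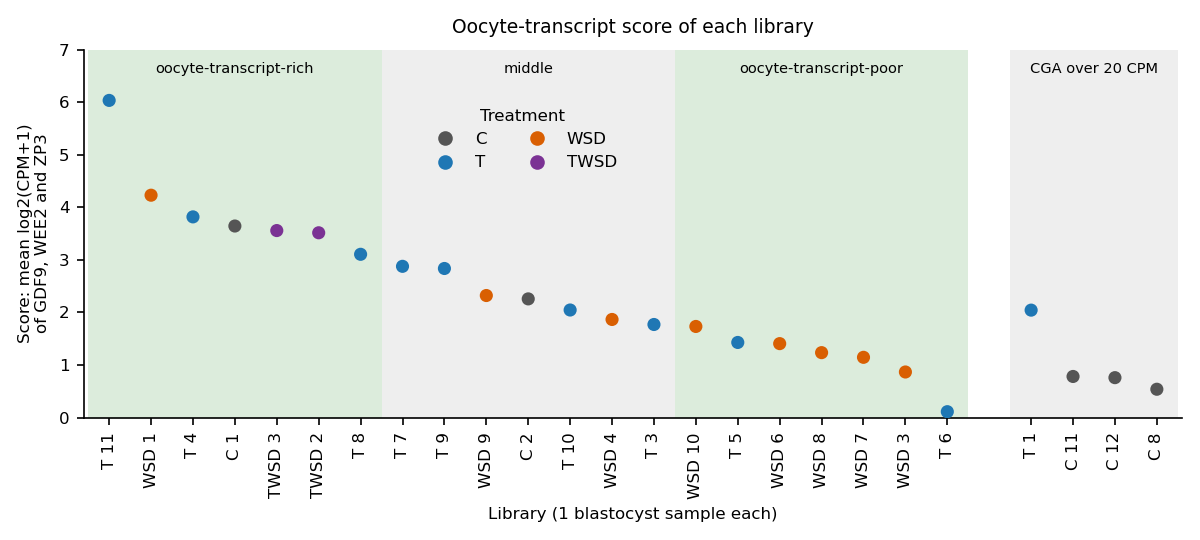
Score of each library (vertical axis, mean log2(CPM + 1) of GDF9, WEE2 and ZP3) in falling order, with 1 point per library and colour for the mother's treatment. T 11 stands alone at 6.03, and the other scores run down to 0.11 with no gap at the limits of the classes.

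GDF9 was at 12.1 CPM at the lowest, 20.3 at the median and 103 at the highest of the rich libraries, and at 0.0499, 2.11 and 10.4 of the poor ones. WEE2 was at 8.78, 33.9 and 197 CPM in rich and at 0, 0.306 and 8.47 in poor libraries. Neither gene overlapped between the classes in this CPM, which the choice of members favours. With the scaling used further below, WEE2 overlapped, at 7.98 CPM in C 1 and 8.32 in T 5. ZP3 did overlap, at 0.39, 2.36 and 12.7 CPM in rich and 0, 0.255 and 2.57 in poor libraries. WEE2 had no count in WSD 7 and WSD 8, where 3 counts, the limit a count of 0 allows, would be 0.168 and 0.106 CPM, and ZP3 had none in T 6, with a limit of 0.150 CPM (counting error only). Genes of the rule did not run together in every library: TWSD 2 had 52.1 CPM of GDF9 and 0.589 of ZP3, while C 1 had 14.2 and 12.1.

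Across the other genes no difference passed the test. Of 13281 genes, edgeR's quasi-likelihood test called 0 higher and 0 lower in rich libraries (0% called, smallest adjusted p = 0.9997), with a biological coefficient of variation of 0.846. At an unadjusted p under 0.05, 293 genes were higher (2.21%) and 168 lower (1.26%). DESeq2 called 10 higher and 3 lower (0.0979%). With the score as a number over all 21 ranked libraries, edgeR called 5 genes (0.0376%), all of which went up with it. The median log2 difference over all genes was 0.04, with 53.5% above 0. An adjusted p here says only whether a gene goes along with the score of 3 genes among these libraries. Values below are TMM-scaled CPM (the same scaling with edgeR's correction of library size), and differences are log2, rich minus poor, ± SE.

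Oocyte genes outside the rule were mostly higher in rich libraries, with a wide spread. Of 62 listed oocyte genes in 4 lists, 51 were in the table and 38 passed the filter on low counts, 13 of these only with the rich libraries. Their median difference was 1.59, with 27 of 38 above 0, beside 53.5% of all genes. At an unadjusted p under 0.05, 12 were higher and 2 lower, beside 2.21% and 1.26% of all genes. Because low genes entered by being high in rich libraries, these counts describe the genes that passed and support nothing further. With treatment as a term the median was 1.87, and without T 11 it was 1.28. Within T libraries it was 2.75, from 3 rich and 2 poor libraries that include the highest score (T 11) and the lowest (T 6). T 11 was the highest of the 21 libraries in 16 of the 38 genes, and TWSD 2 in 6.

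Of the proteins at the egg surface and secreted by the oocyte, 6 of 7 tested genes were above 0, with a median of 2.95. Only 3 of the 7 reached the filter without the rich libraries, so this count only describes the genes that passed. BMP15, the partner of GDF9 in signalling to the follicle, was at 0 CPM at the lowest, 5.45 at the median and 30.9 at the highest of rich and at 0, 0.262 and 2.67 of poor libraries. Its log2 difference was 3.54 ± 1.50, and 2.37 without T 11; it passed the filter only through the rich libraries, so no p is given. Both TWSD libraries had no BMP15 count although their scores were high. ZP4, an egg coat protein, was at 0, 2.19 and 13.4 CPM in rich and 0, 0.0323 and 0.607 in poor libraries, while ZP2, which binds sperm in the egg coat, was at 0, 1.18 and 9.68 against 0, 0 and 2.20. ZP2 was highest in WSD 1 and ZP4 in TWSD 2, so the egg coat genes did not share 1 leading library.

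OOSP1 (ENSMMUG00000053140), which encodes a secreted oocyte protein, was at 20.9, 29.9 and 337 CPM in rich and 0.0973, 3.15 and 22.2 in poor libraries (3.40 ± 0.99, unadjusted p = 0.00307). The classes overlapped at WSD 6 alone, which was above TWSD 3. OOSP4A, a related gene, was at 17.0, 27.5 and 235 CPM against 0, 7.50 and 28.9 (2.95 ± 1.04). Its poor libraries split, with WSD 6 among the rich values and T 6 at 0. CD9, a membrane protein of the egg that sperm fusion needs and that many other cells make, was the exception in this list, at 454, 533 and 659 CPM in rich and 551, 735 and 1095 in poor libraries (-0.50 ± 0.18, unadjusted p = 0.0109).

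**Figure D2:**
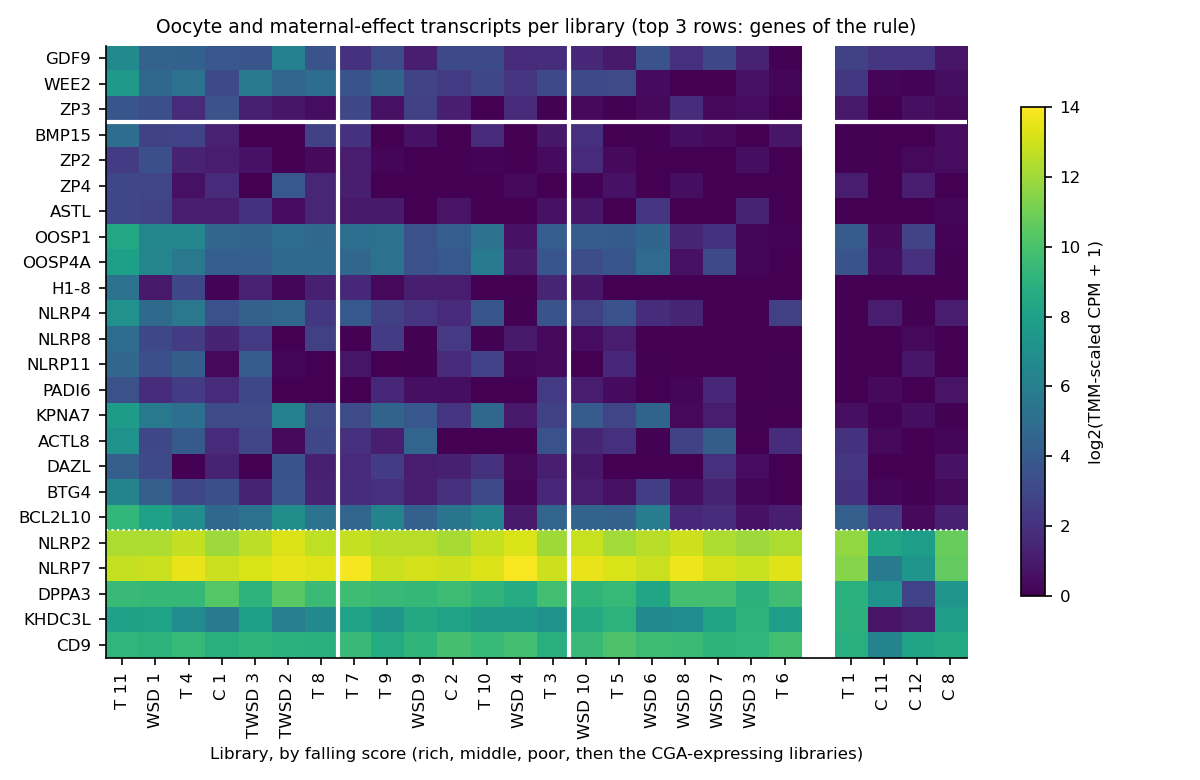
Heat map of log2(TMM-scaled CPM + 1), with genes in rows and libraries in columns by falling score, white lines between the classes, and the 4 CGA-expressing libraries set apart. The upper rows darken from T 11 towards T 6, while the 5 rows below the dotted line, NLRP2 to CD9, keep a high level in all 21 ranked libraries.

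Maternal-effect genes, whose products an egg supplies for the embryo's first days, ranged from genes at a low level in poor libraries to genes abundant in both classes. Of 21 tested, 15 were above 0 (median 1.09), beside 53.5% of all genes. At an unadjusted p under 0.05 in edgeR, 7 were higher and 1 lower, beside 2.21% and 1.26% of all genes. Only 15 of the 21 reached the filter without the rich libraries, so these counts describe the genes that passed and support nothing further. NLRP4, an oocyte member of the NLRP family, was at 3.87, 23.2 and 134 CPM in rich and 0, 2.58 and 10.4 in poor libraries (3.39 ± 1.05). KPNA7, an importin of egg and early embryo, was at 8.09, 34.0 and 213 CPM against 0, 1.10 and 22.2 (3.10 ± 1.18). The medians of the middle libraries lay between those of the classes, with values of 0.0424, 5.38 and 13.3 CPM for NLRP4 and 0.975, 8.44 and 25.1 for KPNA7. In both genes the highest value was that of T 11, and the log2 difference without it was 2.58 for NLRP4 and 2.18 for KPNA7.

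Several maternal genes were close to absent in the poor class. H1-8, NLRP8, NLRP11 and PADI6 passed the filter only through the rich libraries. Low levels of these in the poor class are favoured by that choice, and the values are a description. H1-8, the linker histone of the oocyte, was at 0.112, 1.31 and 36.1 CPM in rich libraries and had 28 counts in 1 poor library and none in the other 6. NLRP8 was at 0, 4.55 and 30.2 CPM in rich and 0, 0 and 1.08 in poor libraries, and NLRP11 at 0, 9.87 and 23.6 against 0, 0 and 2.08. PADI6, a component of the egg's cytoplasmic lattices, was at 0, 2.37 and 10.1 CPM against 0, 0.144 and 2.04. NLRP5, of the subcortical maternal complex, did not pass the filter: T 11 had 11.7 CPM, and no other rich library exceeded 0.728. The middle libraries reached 2.04 CPM for H1-8, 4.32 for NLRP8, 6.07 for NLRP11 and 4.29 for PADI6, within the range of the rich ones, and each of these genes had at least 1 rich library at or near the poor level.

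Other maternal-effect genes were abundant in both classes. NLRP7, needed in the mother for normal development of the embryo, was at 6935, 9318 and 11921 CPM in rich and 7173, 9285 and 13049 in poor libraries (-0.06 ± 0.19). NLRP2 was at 3921, 6163 and 9660 CPM against 3924, 5000 and 7848 (0.14 ± 0.22), and DPPA3, which protects methylation in the zygote, at 524, 710 and 1355 against 307, 657 and 917 (0.32 ± 0.27). In the 4 CGA-expressing libraries the medians were lower, at 876 CPM for NLRP7, 1010 for NLRP2 and 152 for DPPA3. KHDC3L, which works in the subcortical maternal complex, was lower in rich libraries, at 51.5, 113 and 275 CPM against 102, 288 and 530 (-0.98 ± 0.45, unadjusted p = 0.0414). NLRP, KHDC and OOSP genes have close relatives, among which the counting may have split reads.

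Genes of meiosis were above 0 in 4 of 6 (median 1.17), and 5 of the 6 reached the filter without the rich libraries. DAZL, an RNA-binding protein of germ cells, was at 0, 1.57 and 17.8 CPM in rich and 0, 0.0359 and 2.73 in poor libraries (3.29 ± 1.52, unadjusted p = 0.0449), while SYCP3, a protein of meiotic chromosomes, was at 6.52, 15.3 and 39.5 against 7.89, 21.5 and 40.5. Of oocyte transcription factors 2 of 4 were above 0 (median 0.13), and 2 of the 4 reached the filter without the rich libraries. NOBOX was at 0, 0.199 and 2.57 CPM in rich and 0, 0 and 1.24 in poor libraries, and FIGLA was at most 0.226 CPM in either class and was not tested. DDX4, an RNA helicase of germ cells, was at 15.6, 43.5 and 282 CPM in rich and 10.8, 16.2 and 45.8 in poor libraries (1.60 ± 0.57), with its highest value in TWSD 2 and a log2 difference of 0.63 with treatment as a term.

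Of the machinery that clears maternal messages, 10 of 21 tested genes were above 0 (median -0.00), and the largest differences were those of BTG4 and PABPN1L. BTG4 (ENSMMUG00000021438), an oocyte adaptor that brings the CCR4-NOT deadenylase to maternal messages, was at 1.61, 9.50 and 78.1 CPM in rich and 0, 0.563 and 5.11 in poor libraries (3.80 ± 1.08, unadjusted p = 0.00249). T 8 and TWSD 3 were the rich libraries below the highest poor value, that of WSD 6. PABPN1L, the poly(A)-binding partner of BTG4 in the egg, was at 0, 1.19 and 37.6 CPM in rich and 0, 0 and 3.50 in poor libraries (2.55 ± 1.62, unadjusted p = 0.134). The scaffold CNOT1 was at 303, 475 and 917 CPM in rich and 308, 693 and 791 in poor libraries (0.09 ± 0.29), and the deadenylase CNOT7 at 134, 191 and 372 against 144, 212 and 251 (-0.00 ± 0.22). YTHDF2, a reader of methylated messages, was at 282, 322 and 568 CPM against 287, 346 and 393 (0.11 ± 0.18).

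BCL2L10 (ENSMMUG00000017372), a cell death regulator of the oocyte, was at 25.3, 117 and 627 CPM in rich and 0.614, 2.41 and 60.5 in poor libraries (3.53 ± 1.00, unadjusted p = 0.00249). WSD 6 was again the poor library inside the rich range, and WSD 10 and T 5 followed at 20.6 and 18.9 CPM. BTG4, OOSP1 and BCL2L10 were 3 of the 5 genes called with the score as a number over 21 libraries (edgeR adjusted p = 0.0167 for each, from 0.0167 to 1.00 over 28 settings). The others were ACCSL and OTX2. All 5 were highest in T 11, which at 6.03 also had by far the highest score. The fit with the score as a number was not run without T 11, so how far these calls rest on it was not tested. ACCSL was at 0.132, 12.4 and 143 CPM in rich and 0, 1.55 and 9.41 in poor libraries. In that fit BTG4 was higher by 1.23 and OTX2 by 0.62 on the log2 scale per unit of score.

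**Figure D3:**
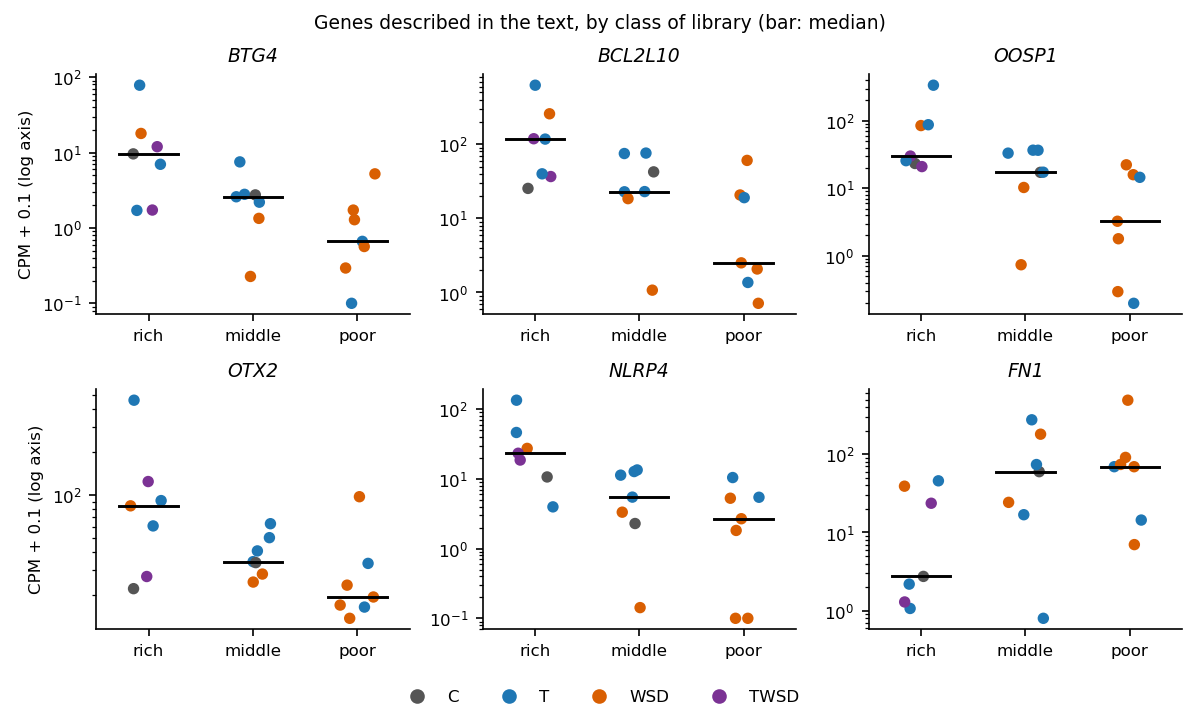
TMM-scaled CPM + 0.1 on a log axis for 6 genes, 1 point per library, coloured by treatment, with a bar at the class median. Medians of BTG4, BCL2L10, OOSP1, OTX2 and NLRP4 step down from rich to poor, that of FN1 is lowest in rich, and in each gene the classes overlap.

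The same oocyte genes were followed in the 7 middle libraries, which the comparison of the classes did not use. There 22 of the 38 oocyte genes had a slope above 0 on the score, beside 49.7% of all 13281 genes, and edgeR called 0 genes of all (177 up and 171 down at an unadjusted p under 0.05; DESeq2 was not run there). The score of the middle libraries spans 1.77 to 2.88, so little of its range was open to this fit. A ranking by BMP15, ZP2 and NLRP5, 3 oocyte genes outside the rule, kept 5 of the 7 rich libraries and 4 of the 7 poor ones. By these genes TWSD 2 was among the poor and WSD 10 among the rich libraries. The genes were at low levels, and NLRP5 did not pass the filter. The limit of this poor class fell between scores of 0.225674 in WSD 4 and 0.225731 in TWSD 3, with TWSD 2 at 0.208. With these classes the 4 oocyte lists had a median of 0.60 over 36 tested genes, with BMP15 and ZP2 left out.

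Embryonic genes lay on both sides of 0. For genes of embryonic genome activation, switched on in the cleaving embryo, 5 of 12 were above 0 (median -0.06), with 0 higher and 0 lower at an unadjusted p under 0.05 in edgeR. The median turned to 0.48 without T 6. KHDC1L was at 159, 319 and 1121 in rich and 354, 386 and 580 in poor libraries (0.36 ± 0.35), and DPRX, a homeobox factor of early cleavage stages, at 7.24, 88.1 and 174 against 5.28, 28.2 and 154 (0.58 ± 0.73). Both overlapped through most of their range.

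Trophectoderm genes leaned lower in rich libraries, but the direction turned with treatment as a term. In that fit C 1 and both TWSD libraries add nothing to the difference, since their groups held no poor library. Of 23 tested genes 7 were above 0 (median -0.33), with 0 on either side at an unadjusted p under 0.05 in edgeR. With treatment as a term the median was 0.32 with 18 of 23 above 0, and within T libraries it was 0.61. KRT18 was at 926, 4448 and 9290 CPM in rich and 3649, 5991 and 16177 in poor libraries (-0.46 ± 0.41), and HAND1, a factor of trophoblast and mesoderm, at 0.225, 39.9 and 280 against 28.3, 82.2 and 1368 (-2.0 ± 1.07, and 0.08 with treatment as a term). CLDN4, a tight junction protein, was at 744, 1059 and 1662 CPM against 643, 1262 and 1565 (0.04 ± 0.24). C 1 and TWSD 2 had the lowest mean log2(CPM + 1) of this list among the 21 libraries, 3.87 and 4.93, while T 11 with the highest score was at 6.73.

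Primitive endoderm genes were lower in 17 of 21 (median -0.45), with 1 higher and 2 lower at an unadjusted p under 0.05. Of all genes 53.5% were above 0, and 2.21% were higher and 1.26% lower at that threshold. FN1, the matrix protein fibronectin, was at 0.967, 2.64 and 45.6 CPM in rich and 6.89, 69.2 and 491 in poor libraries (-2.82 ± 0.99, unadjusted p = 0.0110). APOA1, an apolipoprotein of endoderm, was at 12.9, 732 and 1209 CPM against 352, 1312 and 3990 (-1.45 ± 0.65, unadjusted p = 0.0393), with C 1 far below the rest. OTX2, a homeobox factor that is also an oocyte transcript, went the other way, at 22.0, 83.9 and 462 CPM against 13.6, 19.2 and 97.3 (1.99 ± 0.63, unadjusted p = 0.00589). With treatment as a term the list's median was -0.22 with 10 of 21 above 0, and within T libraries it was 0.07. In the middle libraries 16 of 21 had a slope above 0, the opposite side.

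Epiblast genes lay on both sides of 0, with 11 of 24 above 0 (median -0.01) and 0 on either side at an unadjusted p under 0.05 in edgeR. POU5F1 was at 307, 542 and 1022 CPM in rich and 241, 433 and 694 in poor libraries (0.37 ± 0.29). DNMT3L, a cofactor of DNA methylation, was at 646, 763 and 1408 CPM against 661, 968 and 1193 (-0.02 ± 0.21), and DPPA2, a pluripotency-linked chromatin factor, at 237, 457 and 657 against 157, 502 and 914 (-0.16 ± 0.34). Syncytiotrophoblast genes, in libraries that the rule had kept low in CGA, were above 0 in 3 of 10 (median -0.23). PGF, a placental growth factor, was at 7.48, 30.8 and 68.3 CPM in rich and 38.7, 56.3 and 99.3 in poor libraries (-0.87 ± 0.40, unadjusted p = 0.0419).

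**Figure D4:**
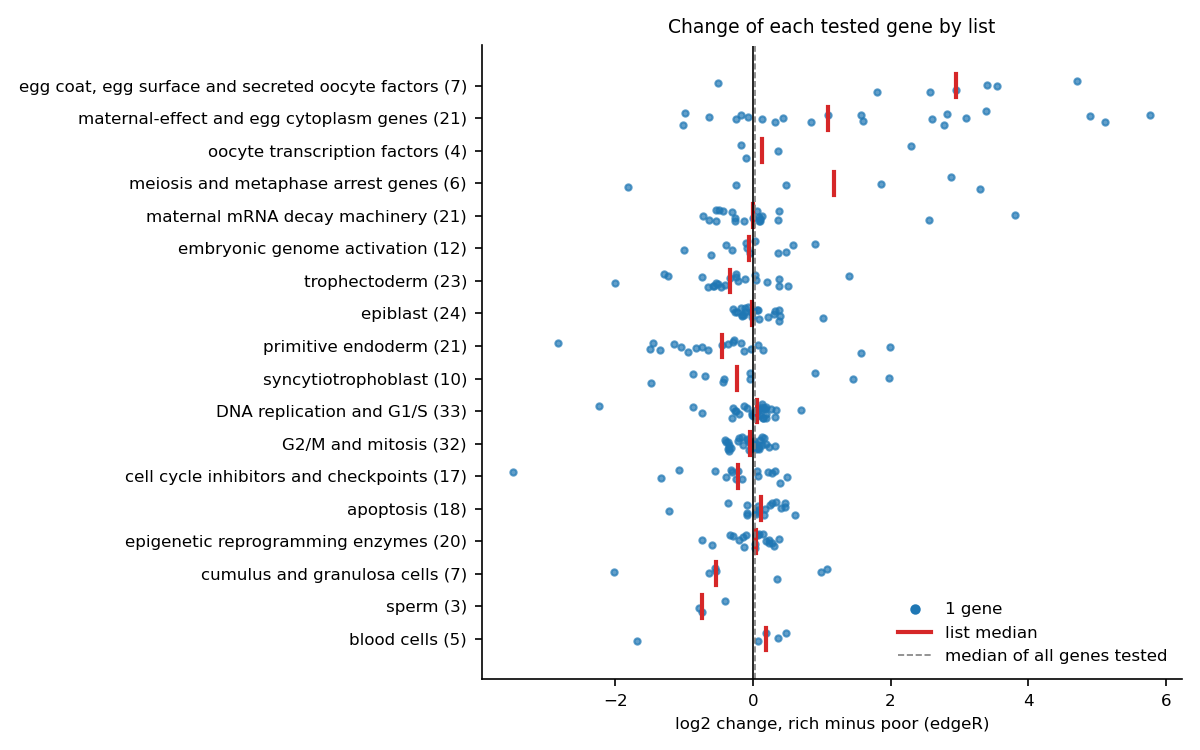
Each point is the log2 difference (rich minus poor, edgeR) of 1 tested gene, in the row of its list, with the number of tested genes in brackets and a red bar at the list's median. The medians of the egg surface, maternal-effect and meiosis lists lie at 2.95, 1.09 and 1.17, and those of the lineage and cell cycle lists between -0.45 and 0.07. Some oocyte genes passed the filter only through the rich libraries.

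Cell cycle genes also lay on both sides of 0. Of genes for DNA replication and the G1/S step, 20 of 33 were above 0 (median 0.07), and of genes for G2/M and mitosis 14 of 32 (median -0.04), with 0 on either side at an unadjusted p under 0.05 in edgeR. MCM4, of the replicative helicase, was at 469, 706 and 942 CPM in rich and 455, 653 and 821 in poor libraries (0.14 ± 0.20). RRM2, which makes deoxyribonucleotides, was at 533, 610 and 944 CPM against 282, 593 and 988 (0.13 ± 0.25). CCNB1, the mitotic cyclin, was at 671, 894 and 2159 CPM against 734, 1052 and 1183 (0.05 ± 0.24), with TWSD 2 above every other library.

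TWSD 2, which also had the lowest TMM factor of the 21 libraries (0.741), moved the mitotic list. Without it 5 of 32 genes were above 0 (median -0.15) and 4 were lower at an unadjusted p under 0.05 in edgeR, beside 264 of all 13281 genes. Without both TWSD libraries, a fit added after seeing the data, the median was -0.18 and 8 were lower, beside 382 of 13281. With classes from BMP15, ZP2 and NLRP5 the median was -0.20 and 5 were lower, beside 453 of 13279. PLK1, a mitotic kinase, was at 399, 673 and 1069 CPM in rich and 465, 625 and 862 in poor libraries (0.09 ± 0.22), and TOP2A, which untangles chromosomes, at 269, 564 and 1046 against 567, 714 and 827 (-0.21 ± 0.26). Inhibitors and checkpoint genes were above 0 in 7 of 17 (median -0.21). BTG1, an antiproliferative factor, was at 47.1, 141 and 254 CPM against 84.4, 143 and 373 (-0.30 ± 0.39). CDKN2C, an inhibitor of cyclin D kinases, was at most 0.119 CPM in rich and 1.85 in poor libraries, with a middle median of 1.55.

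**Figure D5:**
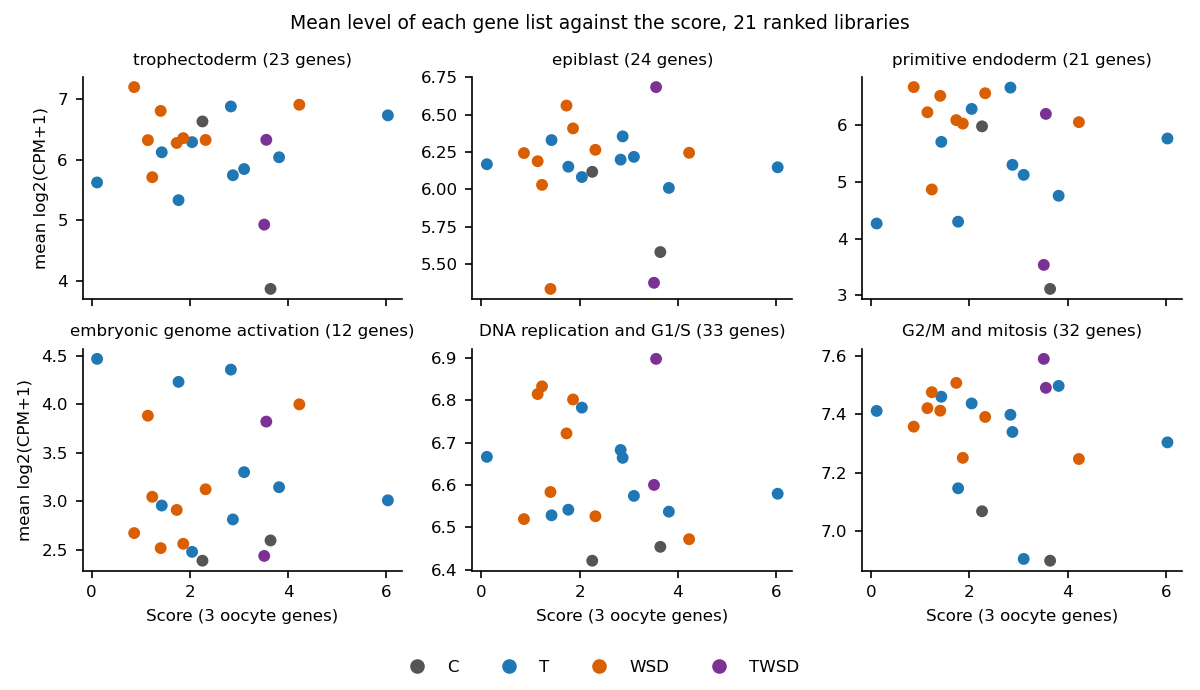
Mean log2(CPM + 1) of 6 gene lists (vertical axes, each with its own range) against the score of the 3 oocyte genes in the 21 ranked libraries, coloured by treatment. C 1 and TWSD 2 lie lowest for trophectoderm and primitive endoderm, and T 11 at the right edge lies within the range of the others in each panel.

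Cell death and epigenetic enzymes were near the level of all genes. Apoptosis genes were above 0 in 13 of 18 (median 0.12) and epigenetic enzymes in 12 of 20 (median 0.04), with 0 on either side at an unadjusted p under 0.05 in edgeR. TET2, which oxidises methylated cytosine, was at 55.0, 398 and 700 CPM in rich and 241, 515 and 1193 in poor libraries (-0.74 ± 0.46), so that the classes overlapped.

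Markers of cells that could have come along with an egg overlapped between the classes, and their part in the differences was not tested. Cumulus and granulosa markers summed to 367 to 1187 CPM (median 731) in rich and 487 to 860 (median 615) in poor libraries; 7 of 17 passed the filter and 3 of these were above 0 (median -0.53). CYP11A1, a steroid enzyme that trophoblast makes too, was at 174, 292 and 811 CPM against 29.9, 151 and 475 (1.08 ± 0.45, unadjusted p = 0.0287). Sperm markers summed to 2.57 to 12.8 CPM in rich and 6.46 to 12.7 in poor libraries; 3 of 12 passed the filter and none of these was above 0 (median -0.74). Blood cell markers summed to 4.10 to 32.5 CPM against 13.1 to 20.8; 5 of 11 passed the filter and 4 of these were above 0 (median 0.19). The lowest sum of cumulus markers and of blood markers in the rich class was that of TWSD 2.

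Outside the lists, a few genes separated the classes with no overlap. Every rich library was above every poor one in 8 genes (0.0602% of those tested), and every poor library above every rich one in 3 (0.0226%). A gene unrelated to the classes separates them in a given direction in 1 of 3432 splits. Among 13281 genes some would do so by chance. The genes in this paragraph were chosen after their values were seen. GNPDA1, an enzyme of glucosamine metabolism, was at 284, 314 and 349 CPM in rich and 158, 226 and 256 in poor libraries (0.61 ± 0.16, unadjusted p = 0.00143). PLCE1, a phospholipase, was at 5.35, 10.1 and 30.9 CPM against 0.303, 2.19 and 4.78 (2.79 ± 0.66). ZNF24, a zinc finger protein, went the other way, at 25.9, 38.9 and 49.9 CPM against 53.0, 65.5 and 94.3 (-0.77 ± 0.22). GNPDA1 and PLCE1 were also called by DESeq2 (adjusted p = 0.0349 and 0.0113, with 1.00 as the largest over 28 settings for each).

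SH2B2, an adaptor of receptor kinases that was also chosen after its values were seen, was at most 0.0444 CPM in rich libraries, with 0 counts in 6 of 7, and at 0, 2.60 and 5.42 in poor ones, where T 6 and WSD 7 had none. DESeq2 called it lower (adjusted p = 0.0168, with 1.00 as the largest over 28 settings), and edgeR did so under none of its settings.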

How the data were processed

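RNA sequencing of 25 macaque blastocyst libraries was deposited by the authors as 1 table of raw read counts per gene (35395 genes). Per the submitters' processing notes, FastQC 0.11.8, Trimmomatic 0.39 and STAR 2.7.0 were used with genome build Mmul_10; how reads were counted, on which annotation and with which strand setting, is not given in the sources used here. A symbol was matched for 24173 gene identifiers.

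The members and gene lists were chosen with earlier results of these data known. CPM for the rule used column sums. Genes reaching 1 CPM in 5 or more of the 21 ranked libraries were kept (13284, of which 13281 were tested, the 3 genes of the rule being left out). In the shallowest of these libraries 1 CPM is 15.0 counts. Counts were scaled with TMM factors and tested over the 14 libraries with the quasi-likelihood test of edgeR 4.0.16 (R 4.3.3, Benjamini-Hochberg adjustment, threshold 0.05). DESeq2 1.42.0, other scalings, no filter, treatment as a term, T libraries alone, a replicate block, other class limits and leaving out each library were the alternatives. Exact tests used scipy 1.17.1.

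The rule for named genes took genes passing the test and, for lists with fewer than 3 such genes, up to 4 members of highest CPM. No gene passed, so genes beyond the latter, among them those with a small p, were chosen after their values were seen. On simulated counts with 50 changed genes per size, 24% of 2-fold, 66% of 4-fold, 84% of 8-fold and 96% of 16-fold changes were recovered, and 5 of 13081 unchanged genes were called. The changed genes were drawn only from genes with a mean CPM well above the filter's limit, so these shares do not cover genes near 1 CPM. On the real counts OOSP1, 10.6-fold higher in rich libraries, was not called. Results on some items are not reported here. No library repeated another: the smallest chi-square per gene over 210 pairs was 65.5.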

Additional observations from a re-analysis of the deposited data

Results flagged for a closer look

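Within each class, a library was singled out where its gap to the nearest other value, divided by the class's range, was above Dixon's 95% critical value for 7 samples. Of 264 such checks 26 met this, and chance does so in about 1 of 20. Values are log2(CPM + 1) unless they are scores.

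T 11 stood apart in 2 checks among the rich libraries, of which neither is a test. Its score, the value that chose the class, was 6.03 with 4.23 as the next. SH2B2 was at 0.0626 (0.0444 CPM, close to no counts) where the other rich libraries were at 0. WSD 1 was high for LYZ at 4.17 beside 2.14.

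TWSD 2 was low among rich libraries for TAF4B at 0.55 beside 4.42, CCNB3 at 1.04 beside 2.97, TBX3 at 5.96 beside 7.70, PKMYT1 at 0.73 beside 5.40, TRIM28 at 8.28 beside 9.22 and SREBF2 at 3.50 beside 7.75. It was high for ZNF280A at 7.47 beside 5.59, MCM3 at 10.45 beside 9.55 and CCNB1 at 11.08 beside 10.00. It also had the lowest TMM factor of the ranked libraries, and the part of scaling was not tested.

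C 1 was low among rich libraries for genes of trophectoderm and primitive endoderm: DAB2 at 6.56 beside 9.08, APOA1 at 3.80 beside 7.75, LRP2 at 4.73 beside 7.76 and LAMB1 at 6.92 beside 8.54.

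Among poor libraries WSD 10 was high for NOBOX at 1.16 beside 0.26, ZP2 at 1.68 beside 0.54 and H1-8 at 0.83 beside 0, all 3 genes of the oocyte. T 5 was high for NLRP11 at 1.62 beside 0.08, WSD 8 for ZP3 at 1.86 beside 0.47, WSD 3 for ESR2 at 0.33 beside 0 and WSD 7 for ZNF24 at 6.57 beside 6.10. WSD 8 was low for GJA1 at 7.56 beside 8.20, T 6 for STARD4 at 2.91 beside 4.37, and WSD 7 for PPP1R21 at 4.35 beside 5.23.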

How the results depend on the processing

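Of the alternatives run, those that called any gene at an adjusted p under 0.05 were DESeq2 (10 higher and 3 lower), the table with no filter on low counts (1 higher) and the score as a number over 21 libraries (5 higher). All others called 0 higher and 0 lower: RLE factors, library totals, treatment as a term, T libraries alone, 3 classes over 21 libraries, 5 against 5, 10 against 10, classes from BMP15, ZP2 and NLRP5, without both TWSD libraries (added after seeing the data), and leaving out each of the 14 libraries, with a range of 0 to 0. The labels give groups shared replicate numbers with no stated meaning, and the fit with a replicate block called 0 higher and 0 lower on 8 residual degrees of freedom, with 120 and 225 at an unadjusted p under 0.05. A fit of WSD libraries alone was not run, since it was planned only for 2 or more libraries per class and 1 of them was rich. No filter moved the median of all genes from 0.04 to 0.24. Of the 126 tested genes described, the direction changed in 35 within T libraries, 24 with treatment as a term, 22 with classes from BMP15, ZP2 and NLRP5, 18 with 5 against 5, 17 with the replicate block and 16 with the score as a number. Leaving out 1 library changed it in 1 (T 11) to 12 (TWSD 2). Genes under 1 CPM, such as ZP1 and FIGLA, are limited by depth.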

Other observations

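Genes for making and taking up cholesterol were lower in rich libraries, a list drawn up after their values were seen, so that its counts describe and do not test. All 21 tested genes were below 0 (median -0.74), and 9 were lower at an unadjusted p under 0.05 in edgeR, beside 1.26% of all genes. INSIG1, the sterol sensor that holds back the pathway, was at 39.4 CPM at the lowest, 123 at the median and 248 at the highest of rich and at 91.4, 311 and 902 of poor libraries (-1.72 ± 0.45, unadjusted p = 0.00122). MVD, of the mevalonate pathway, was at 74.7, 160 and 364 CPM against 178, 376 and 770 (-1.34 ± 0.36), and MSMO1, which removes methyl groups from sterols, at 208, 252 and 670 against 333, 549 and 1053 (-1.02 ± 0.30). Each of these genes overlapped between the classes.

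With treatment as a term the list's median was -0.70 with 0 of 21 above 0, and without both TWSD libraries -0.97. Within T libraries it was -0.27 with 7 of 21 above 0 and 0 at an unadjusted p under 0.05. In the middle libraries, 16 of 21 genes had a slope above 0 on the score, the other direction. The Western-style diet was that of 5 of 7 poor and 3 of 7 rich libraries, and its part in the difference was not tested beyond these fits.

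Other genes outside the lists were chosen after their values were seen. Lower in rich libraries were IDH1 and KRIT1. IDH1, which makes NADPH in the cytosol, was at 73.6, 86.5 and 154 CPM against 110, 202 and 468 (-1.19 ± 0.30, unadjusted p = 0.00106), and KRIT1, a scaffold of cell junctions, at 81.4, 136 and 288 against 195, 297 and 460 (-1.07 ± 0.27, unadjusted p = 0.0011). Higher in rich libraries were PRKD2 and PPP1R21, the other 2 genes with a symbol above 50 CPM at the lowest rich library whose classes did not overlap, at 50.7, 70.2 and 88.9 CPM against 19.0, 41.2 and 50.5, and at 54.6, 64.2 and 72.0 against 19.4, 38.5 and 52.3.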
